A study of Homo sapiens with 17 samples.

Results

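Keratin genes were examined across RNA sequencing libraries of squamous cancer cell lines in which the SOX2 oncogene or its enhancer e1 had been perturbed. The members were all rows of the expression tables whose symbol was KRT followed by digits and at most a single letter from A to C, so that keratin-associated proteins, keratin pseudogenes and antisense transcripts were left out. This gave 56 of 57820 genes, with 55 distinct symbols because KRT222 was listed under 2 identifiers. There were 30 type I and 26 type II rows. In the hg19 genome all 29 rows on chromosome 17 were type I and lay between positions 38783608 and 39781094, while chromosome 12 held the type II genes and the type I gene KRT18, with its cluster running from 52562780 to 53343738 and KRT18 at its edge (53342655 to 53346690).

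Keratins build the intermediate filaments of epithelial cells. A type I and a type II protein must pair to form a filament, and the pairs change with the kind of epithelium: KRT8 and KRT18 in simple epithelia, KRT5 and KRT14 in the basal layer of stratified epithelia, KRT4 and KRT13 above it in mucosa such as the esophagus, KRT1 and KRT10 above it in epidermis, and KRT6 with KRT16 or KRT17 in wounded or hyperproliferative epithelium. Hair keratins, such as KRT34, KRT81 and KRT86, are normally made in the hair follicle. SOX2 is a transcription factor of the squamous lineage, and e1 is an enhancer downstream of it.

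The study asked how far SOX2 expression in squamous cancers rests on e1. KYSE140, an esophageal squamous cancer line, gave 13 libraries, and SKMES1, a lung squamous cancer line, gave 4. In KYSE140, e1 was repressed by CRISPRi (guides sg-e1#1 and sg-e1#2, against sg-NC#1 and sg-NC#2, all in cells carrying the same CRISPRi system), SOX2 was knocked out with Cas9 (sg-SOX2#2, sg-SOX2#3 and sg-SOX2#4, against sg-AAVS1 and sg-Chr2.2), and cultures A and B received 0.5 µM ARV-771, a small molecule that directs proteins to degradation, or DMSO for 6 h. In SKMES1, e1 was activated by CRISPRa with sg-e1#1 and sg-e1#3, against sg-NC#1 and sg-NC#2. Libraries of a group thus differed in guide or culture, the knockout libraries are named without any statement that they were clones, and p-values measure the spread between these libraries only.

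Libraries held 7260730 to 15781463 expected counts, so that 3 counts, taken as the limit of detection, stood for 0.19 to 0.413 CPM, counts scaled to library totals. Expected counts are the read numbers that RSEM assigns to a gene after dividing reads that match several genes, and levels are given as TPM, transcript abundances corrected for gene length and library total. SOX2 itself was at 379 and 365 TPM with control guides and 120 and 128 TPM with e1 guides. It was at 397 and 428 TPM in knockout controls against 103, 125 and 221 TPM in the knockouts with sg-SOX2#2, sg-SOX2#3 and sg-SOX2#4, and all knockout values below are given in that order. It was at 236 and 223 TPM with DMSO against 9.8 and 10.5 TPM with ARV-771, and at 1.68 and 1.53 TPM against 224 and 316 TPM on e1 activation in SKMES1. Every SOX2 value thus lay on the side that its label stated, although transcript level says little about whether a guide disrupted the protein.

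Of the 8 squamous markers checked, all 8 were at or above 9.8 TPM in every KYSE140 library. SKMES1 went against its label for several of them: DSG3 was at 0 to 0.1 TPM, DSC3 at 0.46 to 0.94 TPM, KRT5 at 0.05 to 1.26 TPM and TP63 at 1.87 to 3.79 TPM. PERP, however, was at 66.7 to 81.4 TPM in SKMES1. KRT14 (0 to 118 TPM), KRT6A (0.32 to 19.2 TPM) and SOX2 (1.53 to 316 TPM) varied between its libraries. Of the glandular markers, CDX2 was at 1.06 to 3.19 TPM in SKMES1 and 0 TPM in KYSE140. NKX2-1 was at 1.1 to 2.61 TPM and 0.07 to 1.54 TPM. MUC2 and VIL1 stayed at or below 0.36 TPM in both lines. Of the 6 fibroblast markers, COL1A2, COL3A1 and LUM stayed at or below 0.21, 0.08 and 0.24 TPM in both lines. COL1A1 ranged from 9.81 to 43.9 TPM in KYSE140 and from 13.5 to 21.9 TPM in SKMES1. DCN reached 3.92 TPM in KYSE140 and was at 0 TPM in SKMES1. PDGFRB was at 1.37 to 2.15 TPM in SKMES1 and at most 0.08 TPM in KYSE140. Replicates were not copies of each other. The counts of paired libraries within a group differed by 2.19 to 28.8 times the chi-square expected from counting alone, and the largest value was that between the SKMES1 control libraries, in which 5 keratins differed by more than 10-fold.

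Several keratins share long stretches of sequence, and this limits what their counts mean. The coding sequences of KRT6A, KRT6B and KRT6C, neighbours on chromosome 12 and each 1692 bases long in GENCODE, were 97.5% (KRT6A and KRT6B), 97.9% (KRT6A and KRT6C) and 98.5% (KRT6B and KRT6C) identical. KRT6A and KRT6C had 349 consecutive bases in common. The 60 coding bases in which the 3 genes differed most (coding positions 663 to 722, minus strand, within a single exon) are shown because they are the kind of stretch by which a read can be told apart, with the 9 positions that differ in capitals. They lie at chr12:52885339-52885398 in KRT6A, chr12:52844223-52844282 in KRT6B and chr12:52865883-52865942 in KRT6C (GRCh37).
KRT6A: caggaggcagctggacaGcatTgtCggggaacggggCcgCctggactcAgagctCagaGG
KRT6B: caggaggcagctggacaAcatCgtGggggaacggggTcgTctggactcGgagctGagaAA
KRT6C: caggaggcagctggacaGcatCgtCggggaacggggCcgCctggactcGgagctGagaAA
Over the whole coding sequence only 51 positions differed among the 3 genes. KRT14 and KRT16 were 88.7% identical with a common run of 158 bases, KRT14 and KRT17 were 86.4% identical, and the hair keratins KRT81 and KRT86 were 93.9% identical with a common run of 605 bases.

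Counts that are not whole numbers mark rows to which shared reads were assigned in part. Of the 56 rows, 18 had such a count in at least 1 library, and KRT8 had one in all 17 libraries. KRT14 and KRT16 had them in 16 libraries, KRT5, KRT6A and KRT6B in 13, KRT17 in 12, KRT6C in 11 and KRT15 in 10, whereas KRT7, KRT13, KRT19, KRT75 and KRT80 had none. Pseudogenes took little of the combined count: at most 3.36% for KRT8, 2.14% for KRT16, 0.435% for KRT18, 0.166% for KRT17 and 0.0131% for KRT19. Annotated gene bodies also overlap, those of KRT7 (chr12:52626304-52645970) and KRT81 (chr12:52679697-52685318) with KRT86 (chr12:52643084-52702947), and that of KRT8 (chr12:53290971-53343738) with KRT18, so that KRT86 in particular may hold counts of its neighbours.

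Of the 56 rows, 6 had no count in any library and 21 never rose above 3 counts. A mean of at least 1 TPM in some group was reached by 26. In KYSE140 a few genes held most keratin transcript: KRT6A, the type II wound keratin, took 20.5% to 38.7% of the summed keratin TPM of a library, KRT5, the basal type II keratin, 14.5% to 39.2%, and KRT17, a type I wound keratin, 11.5% to 33.8%. KRT8 took 0.884% to 11.9% and KRT19, a type I keratin of simple and basal epithelium, 1.71% to 8.75%. No cornea keratin exceeded 1 TPM in any library.

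**Figure D1:**
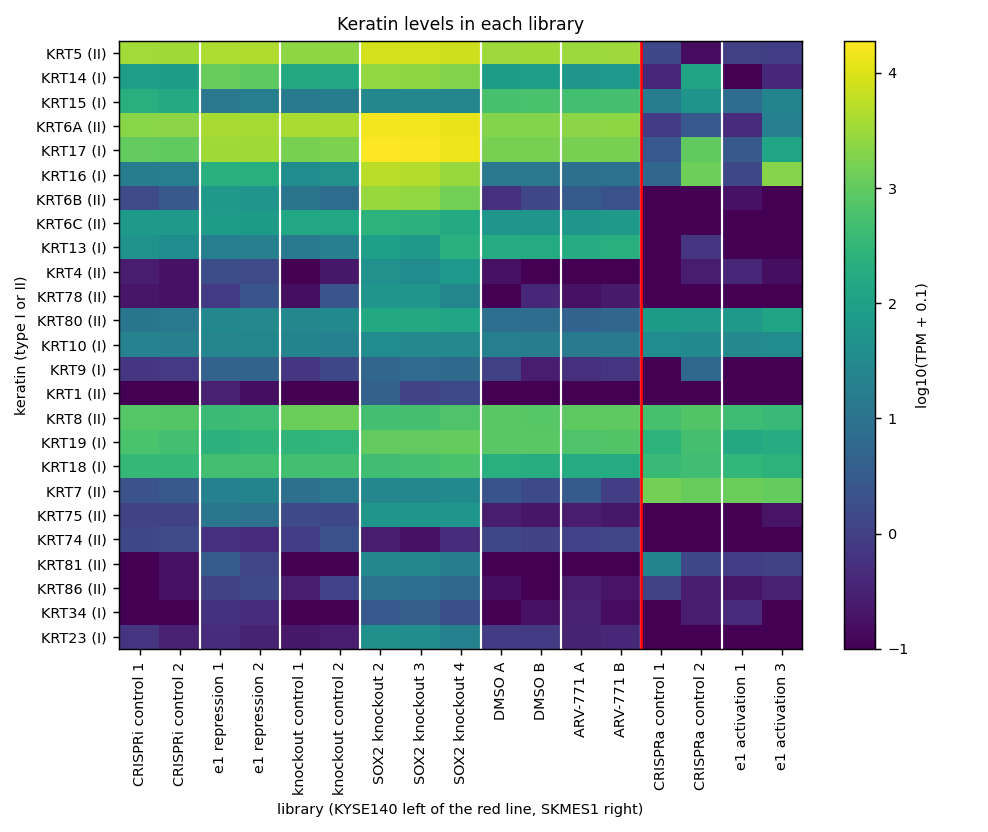
Level of each of the 25 keratins described singly (rows, with type I or II in brackets, ordered by keratin group) in each of the 17 libraries (columns), as log10(TPM + 0.1) in colour. KRT5, KRT6A and KRT17 are bright in all KYSE140 libraries and brightest in the SOX2 knockouts, KRT7 is bright in SKMES1 only, and KRT16, KRT17 and KRT14 are uneven within the SKMES1 groups.

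The keratin share of all transcripts differed between conditions. Keratins made up 0.889% and 0.866% of transcripts with control guides and 1.44% and 1.42% with e1 guides, a 1.62-fold higher summed TPM. They made up 1.05% and 1.07% in knockout controls and 5.63%, 5.30% and 4.35% in the SOX2 knockouts, which is 4.79-fold higher. Within each comparison the groups did not overlap, and the knockouts stood far above every other library. Shares with DMSO (0.957% and 0.981%) and ARV-771 (0.944% and 0.987%) overlapped, and SKMES1 libraries held 0.287% and 0.540% with control guides against 0.228% and 0.426% with e1 guides, again overlapping. Over the members with whole counts in every library, the knockout ratio was 4.22 but the e1 repression ratio was 0.598, the opposite direction, since those members leave out KRT5, KRT6A and KRT17 and are led by KRT19.

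**Figure D2:**
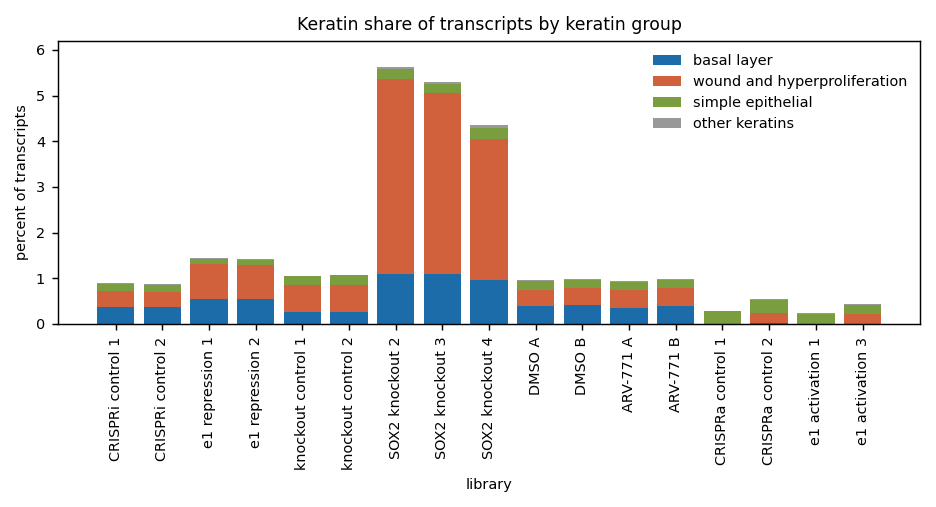
Percent of all transcripts (vertical axis, from summed TPM) taken by keratins in each library, stacked by keratin group. The 3 SOX2 knockout bars reach 5.63%, 5.30% and 4.35% and are mostly wound keratins, whereas no other bar exceeds 1.44%.

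The balance of the keratin types moved as well. The summed TPM of type I over that of type II keratins was 0.358 and 0.333 with control guides and 0.638 and 0.589 with e1 guides. It was 0.327 and 0.348 in knockout controls and 1.05, 1.00 and 0.904 in the knockouts, so that type I and type II transcripts were about equal there. For the simple epithelial pair, KRT8 exceeded KRT18 in TPM by 2.31 and 2.19 times with control guides but was 0.803 and 0.871 times KRT18 with e1 guides. The same ratio was 2.63 and 2.54 in knockout controls, 1.07, 1.04 and 1.17 in the knockouts, 3.95 and 4.19 with DMSO and 5.05 and 5.15 with ARV-771. Groups did not overlap in any of these KYSE140 ratios, which were described and not tested.

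The response of keratins to e1 repression was examined first. Of the 56 rows, 22 had enough counts to be tested. A gene was called when edgeR's quasi-likelihood test, fitted over all genes, gave a Benjamini-Hochberg adjusted p under 0.05 (edgeR adjusted p in what follows) and the fold change exceeded 1.5. By this rule 13 keratins were higher, against 9.3% of all genes tested, and 5 were lower, against 10.7% of all genes. The median log2 fold change over the tested keratins was 1.52, while that of all genes was 0. With 34 of 56 members untested, these counts describe the expressed keratins only. KRT4, KRT78, KRT81 and KRT86 had 1 to 3 counts over the control libraries together. They had enough counts to be tested only through the e1 guide libraries, so they could only be called higher. KRT74 had enough only through the controls and could only be called lower.

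Of the 5 wound keratins, 4 were higher. KRT16 was at 16.7 and 18.6 TPM with control guides and 221 and 203 TPM with e1 guides, and KRT6B, its type II counterpart, went from 1.53 and 2.85 TPM to 69.6 and 57.3 TPM. Neither gene's groups overlapped, and KRT6B had 25.1 and 47.8 estimated counts behind its control values. Their log2 fold changes were 3.67 ± 0.08 (SE; edgeR adjusted p = 3.23e-14) and 4.86 ± 0.17 (edgeR adjusted p = 3.31e-12). KRT17 rose from 1027 and 999 TPM to 3429 and 3287 TPM (log2 fold change 1.75 ± 0.05, edgeR adjusted p = 1.41e-13). KRT6A rose less, from 2217 and 2282 TPM to 3849 and 3773 TPM (0.78 ± 0.04, edgeR adjusted p = 2.15e-10). KRT6C was at 67.1 and 69.5 TPM and then 79.2 and 76.7 TPM, and was not called (0.21 ± 0.06 on the log2 scale).

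The 3 basal keratins went different ways. KRT14 rose from 87.1 and 81.9 TPM to 1132 and 933 TPM, a log2 fold change of 3.63 ± 0.08 (edgeR adjusted p = 3.63e-14). Its partner KRT5 was already at 3476 and 3397 TPM, was at 4293 and 4522 TPM with e1 guides, and stayed under the fold change required (0.39 ± 0.04). KRT15, a type I keratin of basal cells and hair follicle stem cells, fell from 208 and 171 TPM to 12.2 and 18.7 TPM (log2 fold change -3.64 ± 0.15, edgeR adjusted p = 1.61e-11). It had the largest decrease of any member, and its groups did not overlap.

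Among the suprabasal and simple keratins there were changes in both directions. KRT13 fell from 47.9 and 37.03 TPM to 18.7 and 20.2 TPM (log2 fold change -1.11 ± 0.12, edgeR adjusted p = 1.24e-06), KRT19 from 600 and 504 TPM to 245 and 280 TPM (-1.07 ± 0.08, edgeR adjusted p = 2.8e-08), and KRT8 from 770 and 725 TPM to 401 and 411 TPM (-0.92 ± 0.05, edgeR adjusted p = 7.07e-10). KRT18 was at 333 and 332 TPM against 499 and 472 TPM and was not called (0.56 ± 0.05). KRT7, the type II keratin of glandular ducts, rose from 2.10 and 2.90 TPM to 21.3 and 23.1 TPM (3.09 ± 0.30, edgeR adjusted p = 5.16e-07). KRT80, a type II keratin of many epithelia, rose from 11.2 and 13.6 TPM to 29.2 and 30.5 TPM (1.29 ± 0.09, edgeR adjusted p = 1.23e-08). KRT10 was not called (0.30 ± 0.10). The simple epithelial list of 5 thus had 1 higher, 2 lower, 1 not called and 1 untested.

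Lower-abundance members changed by large ratios. KRT75, a type II keratin of the hair companion layer, went from 0.96 and 0.93 TPM to 11.99 and 9.76 TPM (3.53 ± 0.24, edgeR adjusted p = 9.05e-09), and KRT9, a type I keratin of palm and sole epidermis, from 0.59 and 0.65 TPM to 4.53 and 4.71 TPM (2.61 ± 0.37, edgeR adjusted p = 3.03e-05). KRT74, a type II keratin of the inner root sheath, went from 1.32 and 1.48 TPM to 0.42 and 0.33 TPM (-1.87 ± 0.47, edgeR adjusted p = 0.00453). Both groups were separate for each of these genes. KRT4, KRT78, KRT81 and KRT86 rested on 3, 3, 1 and 1 counts in the control libraries together, so that their ratios were 18.4 (95% counting interval 5.92 to 92.6), 8.41 (2.51 to 44), 60.1 (10.3 to 2420) and 37.2 (6.2 to 1520). All 4 were called, but the calls for KRT78 and KRT74 were lost with DESeq2 (DESeq2 adjusted p = 0.11 and 0.08) and without control guide 2 (edgeR adjusted p = 0.1 and 0.055), and that for KRT78 also without control guide 1 (edgeR adjusted p = 0.058). When all 17 libraries shared a fit, whose spread includes that of SKMES1, the calls for KRT6A, KRT13, KRT16, KRT17, KRT78 and KRT81 were lost (edgeR adjusted p = 0.3, 0.054, 0.13, 0.32, 0.051 and 0.074) at log2 fold changes that hardly moved.

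SOX2 knockout changed more keratins. Of 25 tested, 22 were higher, against 16.3% of all genes tested, and 2 were lower, against 13.5% of all genes. The median log2 fold change was 3.19 for tested keratins and -0.01 for all genes. KRT1, KRT4, KRT23, KRT34, KRT78, KRT81 and KRT86 had 0 to 5 counts over the controls together. They had enough counts to be tested only through the knockouts, so they could only be called higher. KRT74 had enough only through the controls and could only be called lower. The only tested keratin that was not called was KRT18, at 472 and 503 TPM in controls and 467, 499 and 566 TPM in knockouts (0.27 ± 0.07). COL1A1, the fibroblast marker noted above, was at 9.81 and 15.3 TPM in the controls and 39.1 to 43.9 TPM in the knockouts, and at 15.9 and 13.5 TPM against 37.3 and 38.3 TPM in the e1 repression comparison, while COL1A2 and COL3A1 were near 0 throughout. In such bulk libraries, more cells of a kind and more transcript per cell cannot be told apart.

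All 5 wound keratins rose. KRT16 went from 36.3 and 47.7 TPM to 5464, 4711 and 2865 TPM, and KRT6B from 10.5 and 7.32 TPM to 2909, 2624 and 1415 TPM. In both genes the sg-SOX2#4 library, which kept the most SOX2 transcript, was the lowest of the knockouts and still far above the controls. The log2 fold changes were 6.999 ± 0.30 (edgeR adjusted p = 4.09e-09) and 8.21 ± 0.37 (edgeR adjusted p = 6.07e-09). KRT17 became the most abundant keratin, from 1600 and 1708 TPM to 19016, 17708 and 13884 TPM (3.56 ± 0.14, edgeR adjusted p = 2.04e-09). KRT6A went from 4076 and 4070 TPM to 15182, 14330 and 12674 TPM (1.99 ± 0.09, edgeR adjusted p = 6.29e-09). KRT6C rose least, from 142 and 147 TPM to 261, 245 and 168 TPM (0.84 ± 0.16, edgeR adjusted p = 0.000957). Because reads of the KRT6 genes are shared, the KRT6C value in particular may hold reads of KRT6A, and this was not tested beyond summing the 3 genes.

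All 3 basal keratins rose too. KRT14 went from 156 and 149 TPM to 2644, 2424 and 1933 TPM (4.14 ± 0.15, edgeR adjusted p = 1.37e-09) and KRT5 from 2437 and 2398 TPM to 8174, 8392 and 7567 TPM (1.94 ± 0.07, edgeR adjusted p = 1.37e-09). KRT15 was low in the knockout controls, at 14.9 and 16.2 TPM, and was at 28.2, 27.2 and 25.6 TPM in the knockouts (0.99 ± 0.19, edgeR adjusted p = 0.000746). That call was lost when all 17 libraries shared a fit (edgeR adjusted p = 0.08).

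The mucosal keratins KRT4, KRT13 and KRT78 were all higher. KRT13 went from 13.3 and 19.4 TPM to 94.5, 70.0 and 224 TPM (3.19 ± 0.44, edgeR adjusted p = 6.49e-05), highest with sg-SOX2#4. KRT4 had 1 count in the 2 controls together and 2066 in the knockouts, a ratio of 1280 (95% counting interval 229 to 50500), and reached 46.7, 35.0 and 64.0 TPM. KRT78 went from 0.06 and 2.39 TPM to 56.2, 56.5 and 26.6 TPM and was called, on 1 and 4 control counts and 1334 knockout counts, a ratio of 165 (95% counting interval 70.5 to 509). The KRT4 and KRT13 pair of mucosal epithelium thus rose in the same libraries, to levels below those of KRT6A, KRT6B, KRT16 and KRT17.

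Of the 6 epidermal keratins, 4 were tested and all 4 were higher. KRT80 rose from 27.2 and 31.4 TPM to 165, 154 and 132 TPM (2.56 ± 0.12, edgeR adjusted p = 1.12e-08) and KRT10 from 24.0 and 21.1 TPM to 35.3, 29.9 and 29.8 TPM (0.70 ± 0.13, edgeR adjusted p = 0.000567). KRT10 dropped under the fold change required when library totals alone were used as scale (0.49). KRT9 was at 0.59 and 1.31 TPM against 5.34, 6.87 and 6.73 TPM (2.82 ± 0.33, edgeR adjusted p = 1.76e-05). KRT1, the partner of KRT10, had no count in the controls and 78 in the knockouts, at least 16.1-fold higher, yet only reached 4.08, 1.12 and 1.41 TPM. Of the 17 hair keratins, 3 were tested and higher: KRT81 by at least 189-fold (0 against 917 counts), KRT34 by at least 19-fold (0 against 92 counts) and KRT86 by 41.7-fold (95% counting interval 17.7 to 129). KRT23, a type I keratin, had 2 counts in controls and 1362 in knockouts, a ratio of 421 (116 to 3480), and KRT75 went from 1.34 and 1.29 TPM to 63.2, 63.6 and 58.4 TPM (5.74 ± 0.15, edgeR adjusted p = 1.92e-10). With the 3 genes at 0 in controls set to their lower bounds, the median of the tested keratins was again 3.19.

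Of the 4 simple epithelial keratins tested, 2 were higher, 1 was lower and 1 was not called. KRT8 fell from 1240 and 1278 TPM to 497, 518 and 663 TPM (log2 fold change -1.04 ± 0.09, edgeR adjusted p = 1.34e-06), while KRT19 rose from 279 and 305 TPM to 1045, 1010 and 1073 TPM (2.03 ± 0.07, edgeR adjusted p = 1.34e-09) and KRT7 from 8.83 and 12.8 TPM to 28.1, 29.2 and 31.4 TPM (1.55 ± 0.19, edgeR adjusted p = 2.78e-05). KRT74, the other member that was lower, was at 0.81 and 2.07 TPM against 0.16, 0.07 and 0.39 TPM (-2.15 ± 0.61, edgeR adjusted p = 0.0108), which was lost with DESeq2 (DESeq2 adjusted p = 0.051) and without the control guide sg-Chr2.2 (edgeR adjusted p = 0.13). KRT7, KRT8, KRT18 and KRT19 together made up 18.97% and 19.6% of keratin TPM in controls and 3.62%, 3.88% and 5.37% in knockouts. Scaling by library totals moved the log2 fold change of the median gene by -0.21 and the share of calls that were higher from 54.7% to 36.2%, and 21 keratins were then called higher and 2 lower.

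**Figure D3:**
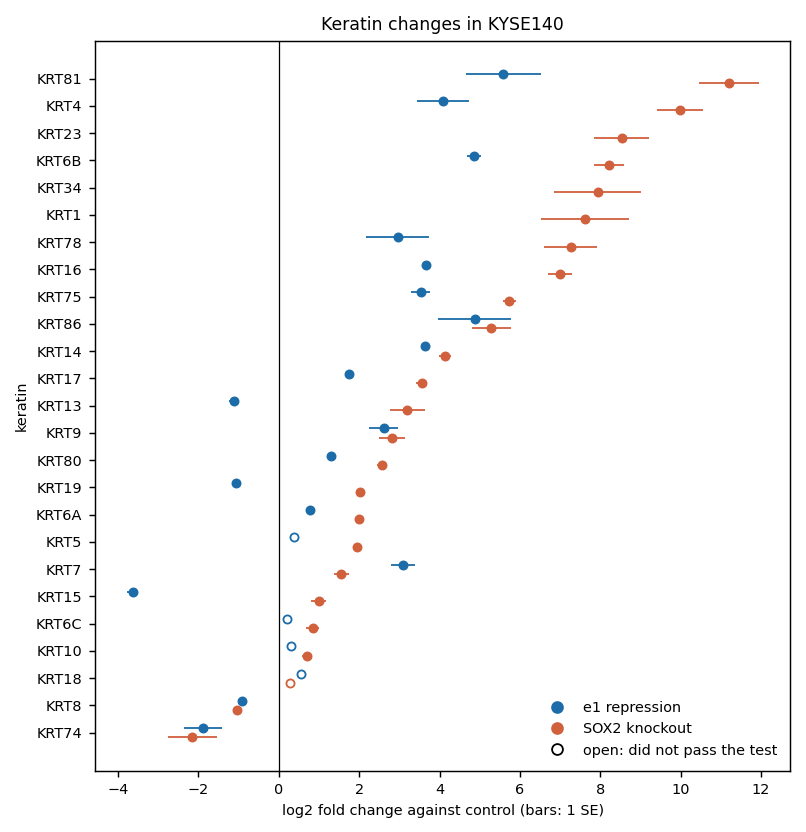
Log2 fold change of each keratin (rows) with 1 SE in e1 repression (blue) and SOX2 knockout (orange) against their own controls, from edgeR, with open points for values that did not pass the test. KRT16 lies at 3.67 and 6.999, KRT8 at -0.92 and -1.04, and KRT13, KRT15 and KRT19 lie on opposite sides of 0; values of KRT4, KRT23, KRT34, KRT1, KRT78, KRT81 and KRT86 rest on few or no control counts.

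Both perturbations can be set side by side since they share no library. All 18 keratins called in e1 repression were also called in the knockout, which is 100% of the first list and 75% of the 24 in the second. Over all genes, 1694 of the 2764 called on e1 repression were called in both. The knockout had 2275 genes called higher and 1882 called lower. The direction was the same for 15 of the 18, against 96.2% of the 1694 genes called in both among all genes. The exceptions were KRT13, KRT15 and KRT19, type I genes that lie next to each other on chromosome 17. All 3 fell on e1 repression and rose in the knockout, from different starting levels: KRT15 was at 208 and 171 TPM with the CRISPRi control guides but at 14.9 and 16.2 TPM in the knockout controls.

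The difference between the effects was tested directly, each against its own control, in a fit over those 9 libraries. Of 25 keratins tested, 1 had a higher log2 fold change on e1 repression, against 8.21% of all genes, and 11 had a lower one, against 8.37% of all genes. The member with the higher value was KRT7 (difference 1.56 ± 0.33, edgeR adjusted p = 0.00275). The largest well-counted negative differences were KRT15 (-4.62 ± 0.28, edgeR adjusted p = 1.13e-07), KRT13 (-4.29 ± 0.58, edgeR adjusted p = 0.000116), KRT6B (-3.33 ± 0.75, edgeR adjusted p = 0.00415), KRT16 (-3.32 ± 0.38, edgeR adjusted p = 2.76e-05) and KRT19 (-3.08 ± 0.12, edgeR adjusted p = 3.39e-09). The differences for KRT8 and KRT14 did not pass the test, at 0.13 ± 0.12 (edgeR adjusted p = 0.435) and -0.50 ± 0.19 (edgeR adjusted p = 0.0706).

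In gene order, changed keratins lay in runs. With 22 of 25 tested keratins higher in the knockout and 13 of 22 on e1 repression, such runs can arise whatever the gene order. Whether they are longer than that was not tested. On chromosome 12, KRT75, KRT6B, KRT6C, KRT6A and KRT5 are consecutive among the members and all were higher in the knockout. The consecutive KRT80, KRT7, KRT86 and KRT81 were higher in both comparisons. On chromosome 17 the consecutive KRT9, KRT14, KRT16 and KRT17 were higher in both, next to the run of KRT13, KRT15 and KRT19 that reversed. Most genes between these runs had too few counts to be tested.

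**Figure D4:**
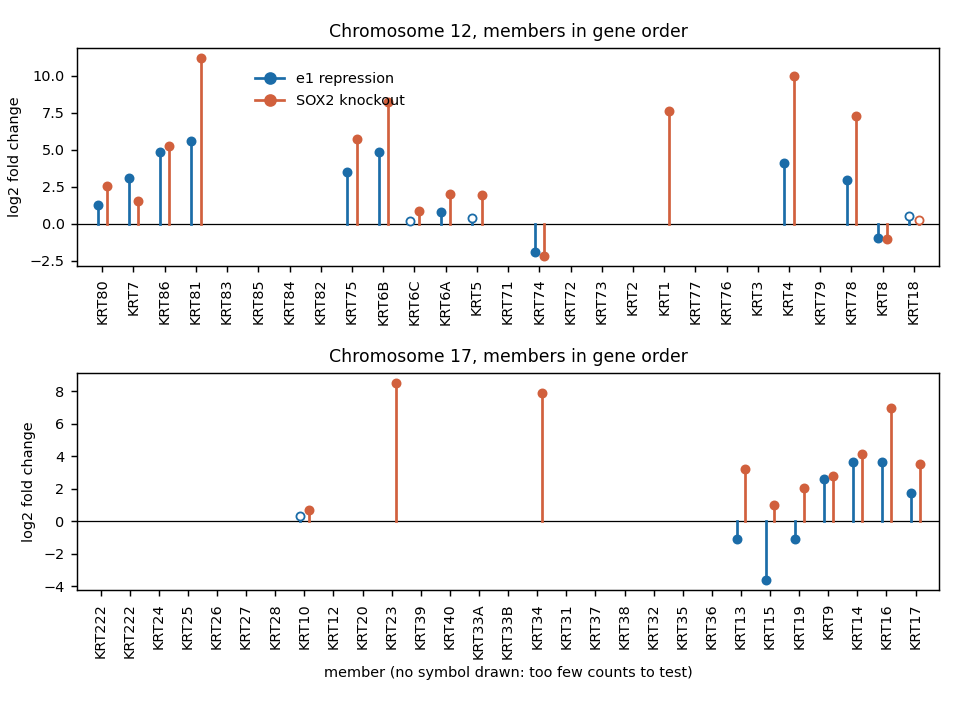
Log2 fold change (vertical axis) of keratins in their order along chromosome 12 (top) and chromosome 17 (bottom), for e1 repression (blue) and SOX2 knockout (orange), with open points for values that did not pass the test and nothing drawn for untested genes. The run from KRT13 to KRT19 is negative in blue and positive in orange, and the run from KRT9 to KRT17 is positive in both.

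Promoters were available in the RefSeq table for 34 of the 55 symbols, as 38 windows from 250 bases before to 50 bases after a transcript start, and each of the 38 was found once in the GRCh37 genome. Only 8 of the 25 keratins described singly had an entry, and KRT6A, KRT6B, KRT6C, KRT13, KRT14, KRT15, KRT16, KRT17 and KRT19 were among those without one, so that shares over the 38 windows mostly describe other keratins. Shown are those of the 5 members with an entry that were called in the same direction in both comparisons: KRT75 (chr12:52828106-52828405), KRT4 (chr12:53207851-53208150) and KRT9 (chr17:39728262-39728561), which rose, and KRT8 (chr12:53320204-53320503) and KRT74 (chr12:52967578-52967877), which fell. All are on the minus strand and are printed 5′ to 3′ along the gene, with matches to the SOX core ACAANG on either strand in capitals.
KRT75: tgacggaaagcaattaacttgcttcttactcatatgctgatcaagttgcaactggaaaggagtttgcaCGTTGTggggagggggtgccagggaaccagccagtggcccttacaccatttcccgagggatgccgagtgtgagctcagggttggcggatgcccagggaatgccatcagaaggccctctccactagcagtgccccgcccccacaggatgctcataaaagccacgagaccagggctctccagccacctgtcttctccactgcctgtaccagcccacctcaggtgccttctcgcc
KRT4: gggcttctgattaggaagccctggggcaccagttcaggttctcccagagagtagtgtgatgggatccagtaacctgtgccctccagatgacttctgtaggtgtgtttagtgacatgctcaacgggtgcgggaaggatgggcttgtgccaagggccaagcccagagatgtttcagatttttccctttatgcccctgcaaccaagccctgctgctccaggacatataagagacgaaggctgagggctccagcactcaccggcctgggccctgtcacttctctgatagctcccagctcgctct
KRT9: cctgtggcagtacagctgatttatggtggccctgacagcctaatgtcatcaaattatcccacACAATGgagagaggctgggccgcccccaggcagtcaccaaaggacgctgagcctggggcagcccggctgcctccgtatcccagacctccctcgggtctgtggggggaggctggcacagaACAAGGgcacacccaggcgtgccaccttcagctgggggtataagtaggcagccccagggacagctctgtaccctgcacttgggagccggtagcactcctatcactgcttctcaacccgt
KRT8: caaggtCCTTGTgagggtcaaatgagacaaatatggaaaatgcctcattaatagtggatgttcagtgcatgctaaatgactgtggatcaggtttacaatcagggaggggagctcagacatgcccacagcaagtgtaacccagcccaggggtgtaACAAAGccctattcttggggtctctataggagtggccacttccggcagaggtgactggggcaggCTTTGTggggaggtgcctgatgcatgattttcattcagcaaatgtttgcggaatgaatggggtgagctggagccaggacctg
KRT74: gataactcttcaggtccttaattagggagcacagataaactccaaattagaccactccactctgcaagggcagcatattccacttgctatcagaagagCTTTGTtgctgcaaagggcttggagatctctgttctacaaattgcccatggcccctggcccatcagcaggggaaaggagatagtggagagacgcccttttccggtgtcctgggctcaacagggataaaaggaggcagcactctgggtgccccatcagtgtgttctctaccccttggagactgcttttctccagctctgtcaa
The SOX core was present in 31.6% of the 38 keratin windows and 35.5% of all 35116 windows in the table. KRT8 held 3 matches, 244, 96 and 32 bases before the start used for its window, KRT9 held 2, KRT74 and KRT75 held 1 each and KRT4 none. Unlike the other printed windows, that of KRT8 lies inside the annotated gene body (chr12:53290971-53343738) and not at its outer start. Whether the KRT8 transcripts measured here begin at that window was not tested. The AP-1 motif TGANTCA was in none of the 38 windows and 7.71% of all windows, and the GC box GGGCGG was in 15.8% and 45.0%. Matches are letters in a window and not measured binding sites.

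Intermediate filament genes other than keratins, and genes for linkers of keratin filaments, were read from a list of 28. They are called partner genes below for short, although not all of their products bind keratin filaments. On e1 repression 5 of 24 tested were higher (9.3% of all genes) and 6 lower (10.7% of all genes), led by VIM, the intermediate filament protein of mesenchymal cells (log2 fold change 3.27 ± 0.06, edgeR adjusted p = 2.8e-15), and PLEC, a linker of keratin filaments to junctions (1.32 ± 0.04, edgeR adjusted p = 2.1e-12), and by NEFL, a neurofilament subunit (-1.21 ± 0.10, edgeR adjusted p = 5.3e-08), and PKP1, a desmosomal plakophilin (-0.59 ± 0.05, edgeR adjusted p = 7.7e-08). In the knockout 12 of 24 were higher (16.3% of all genes) and 5 lower (13.5% of all genes), led by VIM (2.45 ± 0.08, edgeR adjusted p = 9.2e-10) and the cornified envelope gene SPRR1A (11.17 ± 0.39, edgeR adjusted p = 1.2e-09), and by the lamins LMNB1 (-1.48 ± 0.08, edgeR adjusted p = 1.7e-08) and LMNB2 (-0.78 ± 0.07, edgeR adjusted p = 2.5e-06). VIM thus rose in both comparisons, beside 13 keratins higher and 5 lower on e1 repression and 22 higher and 2 lower in the knockout.

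Of 13 genes for epithelial transcription factors and the splicing regulator ESRP1, all tested in KYSE140, 4 were higher (9.3% of all genes) and 4 lower (10.7% of all genes) on e1 repression. FOSL1, a subunit of AP-1, rose most clearly (3.57 ± 0.10, edgeR adjusted p = 5e-13), followed by JUNB (1.23 ± 0.08, edgeR adjusted p = 3.7e-09), while SOX2 (-1.57 ± 0.05, edgeR adjusted p = 2.6e-12) and TP63, the master regulator of stratified epithelium (-0.62 ± 0.05, edgeR adjusted p = 8.5e-08), fell. In the knockout 7 were higher (16.3% of all genes) and 2 lower (13.5% of all genes). ZNF750, a factor of epidermal differentiation, rose by 4.51 ± 0.17 (edgeR adjusted p = 1.8e-09) and FOSL1 by 2.14 ± 0.09 (edgeR adjusted p = 3.1e-09), while TP63 (-1.22 ± 0.08, edgeR adjusted p = 1.5e-07) and SOX2 (-1.28 ± 0.21, edgeR adjusted p = 0.00024) fell. With ARV-771, 12 of the 13 were lower (31.7% of all genes) and none higher (21.2% of all genes) under trimmed-mean scaling.

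In TPM, keratin levels after ARV-771 were close to those with DMSO. KRT5 was at 3221 and 3420 TPM with DMSO and 3000 and 3190 TPM with ARV-771, KRT17 at 1583 and 1567 TPM against 1544 and 1579 TPM, and KRT13 at 185 and 174 TPM against 188 and 212 TPM. Groups overlapped for KRT17, while both ARV-771 values were lower than the DMSO values for KRT5 and higher for KRT13. KRT6A was at 1966 and 2037 TPM and then 2300 and 2376 TPM, and KRT8 at 832 and 817 TPM and then 920 and 916 TPM. KRT16 went from 12.7 and 12.2 TPM to 8.68 and 9.15 TPM and KRT14 from 84.1 and 89.4 TPM to 62.4 and 66.5 TPM. KRT6A and KRT8 were thus slightly higher, and KRT14 and KRT16 slightly lower, without overlap.

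Whether these are changes depended on the scale. With trimmed-mean scaling, which sets the typical gene to no change, 7 of 16 tested keratins were higher (KRT5, KRT6A, KRT6B, KRT6C, KRT8, KRT13 and KRT17), against 21.2% of all genes, and 0 were lower, against 31.7% of all genes. At an unadjusted p under 0.05, edgeR had 14 keratins higher and 0 lower, against 4881 and 5449 of the 13500 genes tested. DESeq2 called 7 keratins higher and 0 lower, and its share over all genes is not given here. KRT6A, for example, had a log2 fold change of 0.95 ± 0.04 (edgeR adjusted p = 1.78e-16) and KRT8 of 0.88 ± 0.04 (edgeR adjusted p = 3.71e-15), and 40% of all calls over all genes were in the higher direction. Using library totals, 1 keratin was higher and 5.9% of all calls were, and using mitochondrial transcripts as scale 1 was higher, 3 were lower and 0.97% of all calls were higher. The median gene moved by -0.45 and -0.99 on the log2 scale under these alternatives. KRT6B was the member higher under all 3 scales, at 0.44 and 1.23 TPM with DMSO and 3.02 and 2.07 TPM with ARV-771 (2.33 ± 0.37 with trimmed-mean scaling, edgeR adjusted p = 4.64e-06). Mitochondrial transcripts took 2.52% and 2.64% of counts with DMSO and 3.82% and 3.68% with ARV-771, and which scale is right was not tested. Among the partner genes 4 of 23 tested were higher (21.2% of all genes) and 4 lower (31.7% of all genes) with trimmed-mean scaling.

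SKMES1 made a different set of keratins. In both control libraries the simple epithelial keratins were abundant, with KRT7 at 1524 and 1141 TPM, KRT8 at 551 and 685 TPM and KRT18 at 373 and 460 TPM. KRT5, KRT6A, KRT6B, KRT6C and KRT75 each stayed at or under 2.7 TPM there, and KRT19 was at 259 and 532 TPM. KRT7, KRT8, KRT18 and KRT19 together took 94.2% and 52.2% of keratin TPM in the control libraries of these cells labelled lung squamous. The lower share belonged to control guide 2, in which KRT16 was at 1314 TPM against 5.34 TPM with control guide 1, KRT17 at 977 against 2.73 TPM and KRT14 at 118 against 0.31 TPM.

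Against the 6 KYSE140 control libraries, 20 keratins were tested, of which 6 were higher in SKMES1, against 31.4% of all genes, and 9 were lower, against 25.8% of all genes. KRT7 was the highest (log2 difference 9.79 ± 0.14, edgeR adjusted p = 2.91e-11), and KRT80 (2.22 ± 0.08, edgeR adjusted p = 6.61e-09), KRT10 (0.64 ± 0.10, edgeR adjusted p = 0.000163), KRT16, KRT81 and KRT222 were also higher. KRT16 rested on control guide 2, since 5.34 TPM with control guide 1 lay below all 6 KYSE140 controls, which held 12.2 to 47.7 TPM. Leaving that library out kept only 1 SKMES1 control library, so calls from that fit are not counted here. KRT5 was called lower, but had only 4 counts and 1 count in the SKMES1 controls (1.26 and 0.05 TPM), so that it was 22600-fold lower with a 95% counting interval of 9690 to 69700. KRT6A was lower as well (-10.66 ± 0.31, edgeR adjusted p = 1.4e-09), on 11 and 47 counts. KRT6B, KRT6C, KRT74 and KRT75 had no count in the SKMES1 controls and were at least 40.5-fold, 981-fold, 17.6-fold and 8.69-fold lower. These members were tested only through the KYSE140 libraries, so they could only be called lower. KRT8 (-0.77 ± 0.08, edgeR adjusted p = 1.53e-05) and KRT15 (-2.28 ± 0.33, edgeR adjusted p = 0.000128) were lower by less, and KRT18 was not called (0.26 ± 0.08). The KRT15 call rested on the CRISPRi controls (208 and 171 TPM) and the DMSO libraries (545 and 574 TPM). In the SKMES1 controls KRT15 was at 16.7 and 53.8 TPM, above both knockout controls (14.9 and 16.2 TPM). Cell line and delivery of the CRISPR system cannot be told apart in this comparison.

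**Figure D5:**
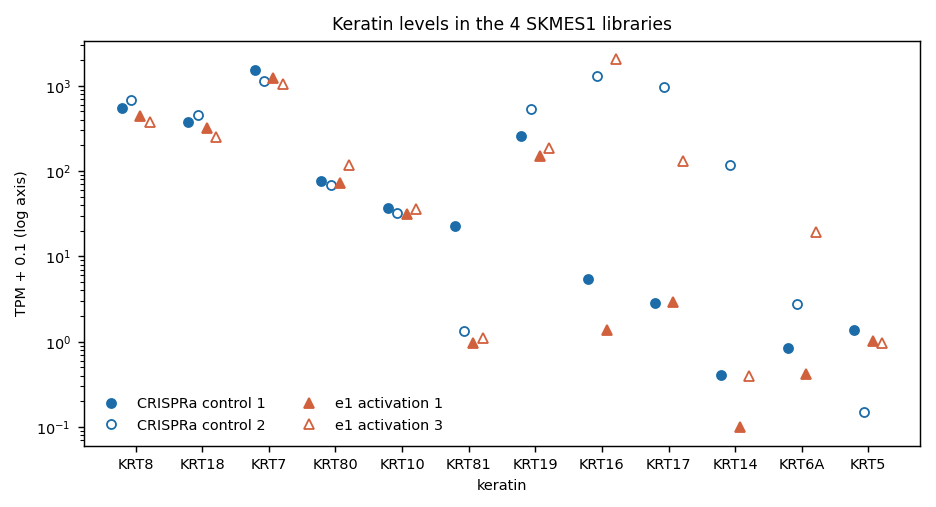
TPM + 0.1 (log axis) of 12 keratins in each of the 4 SKMES1 libraries, with circles for control guides and triangles for e1 guides. KRT7, KRT8, KRT18, KRT80 and KRT10 are tightly grouped, while KRT16 spreads from 1.28 to 2049 TPM with high and low libraries in both groups.

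Activation of e1 in SKMES1 changed no keratin by the rule used. Of 12 tested, 0 were higher, against 0.168% of all genes, and 0 were lower, against 0.0202% of all genes. At an unadjusted p under 0.05 edgeR had 0 keratins higher and 4 lower, against 1079 and 1030 of the 14859 genes tested. DESeq2 called 0 keratins higher and 2 lower, and its share over all genes is not given here. KRT8 was at 551 and 685 TPM with control guides and 446 and 375 TPM with e1 guides (-0.65 ± 0.16, edgeR adjusted p = 0.189), KRT18 at 373 and 460 TPM against 319 and 253 TPM (-0.61 ± 0.16, edgeR adjusted p = 0.215) and KRT19 at 259 and 532 TPM against 150 and 184 TPM (-1.30 ± 0.33, edgeR adjusted p = 0.2). For these 3 simple keratins every e1 library lay below both control libraries, but none was called. How many of all genes were separated in this way was not counted. KRT7 was at 1524 and 1141 TPM against 1243 and 1062 TPM, which overlap (-0.28 ± 0.18, edgeR adjusted p = 0.526).

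The wound keratins could not be compared at this spread. KRT16 was at 5.34 and 1314 TPM with control guides and 1.28 and 2049 TPM with e1 guides, a log2 fold change of 0.61 ± 2.60, and KRT17 at 2.73 and 977 TPM against 2.85 and 133 TPM (-2.87 ± 2.27). In each group 1 library was high and the other low. Fits without control guide 1 or control guide 2 kept 1 control library each, so their calls are not counted here. With all 17 libraries in the fit, which lends SKMES1 the spread of KYSE140, 6 keratins were called lower. With no filter on low counts 10 were called, 2 higher and 8 lower. How many of all genes these fits called is not given here, so the counts are not read as results about keratins. Of the partner genes 0 of 22 tested were called, and of the regulators 1 of 9, SOX2 itself (7.34 ± 0.26, edgeR adjusted p = 0.0045).

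Keratin levels also differed among the KYSE140 controls. Of 18 keratins tested over the 3 control groups, 14 were called, against 16.5% of all genes. KRT15 differed most: it was at 208 and 171 TPM with CRISPRi control guides, 14.9 and 16.2 TPM in knockout controls and 545 and 574 TPM with DMSO, with a difference of 5.49 on the log2 scale between the extreme groups in a test for any difference among the 3 (edgeR adjusted p = 1.01e-18). KRT13 followed the same order (47.9 and 37.03 TPM, 13.3 and 19.4 TPM, 185 and 174 TPM), as did KRT19 (600 and 504 TPM, 279 and 305 TPM, 837 and 841 TPM). These are the 3 genes whose direction differed between e1 repression and SOX2 knockout. KRT6A had the reverse order, with 2217 and 2282 TPM, 4076 and 4070 TPM, and 1966 and 2037 TPM, as did KRT8 in part (770 and 725 TPM, 1240 and 1278 TPM, 832 and 817 TPM). KRT5 differed least of the 3 most abundant members (0.58 on the log2 scale between the extreme groups) and was not called. Vector, treatment and culture cannot be told apart between these control groups.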

How the data were processed

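Poly-A RNA of 13 KYSE140 and 4 SKMES1 libraries was sequenced from directional libraries. The authors used Bowtie2 (hg19) for alignment and RSEM for the quantification of 57820 GENCODE genes, and the deposited tables hold an expected count, a TPM and an FPKM value per gene and library. Expected counts, as deposited, need not be whole because RSEM divides reads between similar genes, and they were rounded to whole numbers for testing. The TPM values, as deposited, served for levels, and FPKM values deposited by the authors were not used. Tool versions and the GENCODE release behind the tables are not given in the sources used here, so positions come from GENCODE 44 lifted to GRCh37.

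The study's own cut-off was followed: edgeR 4.0.16 (quasi-likelihood test, trimmed-mean factors, filterByExpr with a minimum count of 10), Benjamini-Hochberg adjusted p under 0.05 over all genes tested and a fold change over 1.5. Each perturbation was fitted with its own controls. The SE was derived from the fitted effect and its quasi-likelihood F statistic. DESeq2 1.42.0, limma 3.58.1 on log2(TPM + 1) and log2(TPM + 0.1) for genes with a mean of at least 1 TPM, other scalings, no filter, a fit over all 17 libraries, summed paralogs and leaving out each library were the alternatives. The edgeR, limma and DESeq2 fits of a treated against a control group were tested on simulated data. Counting intervals are exact binomial ones at 95% and, like the limit of 3 counts, cover counting error only. For genes without any count in a group, the fold is a lower bound against 3 counts over that group. For members with 1 to 5 counts over a group, the ratio of counts is given.

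Keratins described singly were the 12 with the highest mean TPM in KYSE140 and those called in a perturbation, with at least 1 TPM in some group, 25 in all. Of the partner and regulator lists, at most 2 higher and 2 lower genes with the smallest p were named. The members and lists were chosen with earlier results of these data known. Promoters came from RefSeq (GRCh38.p14) and were placed by exact match to GRCh37. Coding identity is that of the longest annotated coding sequences, aligned globally.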

Additional observations from a re-analysis of the deposited data

Results flagged for a closer look

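Between e1 repression and SOX2 knockout, each measured against its own control, the effect on 12 keratins differed in a test of the difference itself (edgeR quasi-likelihood test, Benjamini-Hochberg adjusted). The differences are given as the log2 fold change on e1 repression less that in the knockout. The value was positive for KRT7 (1.56), which rose in both. It was negative, with a rise in both, for KRT6A (-1.19), KRT80 (-1.25), KRT17 (-1.79), KRT75 (-2.19), KRT16 (-3.32) and KRT6B (-3.33), and for KRT5 (-1.53), which was called in the knockout only. For KRT19 (-3.08), KRT13 (-4.29) and KRT15 (-4.62) the direction itself was opposite. The value of KRT23 (-8.27) had an SE of 2.46 and rested on 2 counts in the knockout controls. The share of SOX2 transcript lost, the guides and the starting keratin levels of the control groups also differed between these comparisons, and their part was not tested.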

How the results depend on the processing

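Over the alternatives, named keratins kept direction and call in 258 of 272 values for e1 repression and 313 of 320 for SOX2 knockout, with none reversed. The ARV-771 values reversed in 28 of 165 and the e1 activation values in 8 of 131. The count of keratins called on e1 repression was 18. It ranged from 13 (both limma settings and all 17 libraries) to 22 (no minimum fold change) over the alternatives that kept every library. Calls over all genes moved too, from 2764 to 1962 and 1973 with limma and 2672 with all 17 libraries. With no minimum fold change they were 6103. The count of keratins called in the SOX2 knockout was 24, and ranged from 21 (fold change over 2) to 28 (no filter) over the alternatives that kept every library. How many of all genes those knockout settings called is not given here. The numbers shared by guides or cultures did not pair libraries (correlation of deviations 0.02 for e1 repression and -0.03 for ARV-771), and the paired fit with a replicate block called 18 and 7 keratins, as without it. For ARV-771 the 7 calls became 1 with library size only, 2 with limma on log2(TPM + 1) and 1 with limma on log2(TPM + 0.1). They became 4 with mitochondrial scaling, 1 for a fold change over 2 and 13 with no minimum fold change. The number of all genes called under each of these ARV-771 settings is not given here. With library size only, log2 fold changes turned negative for KRT14 (-0.16), KRT16 (-0.1) and KRT19 (-0.03). On log2(TPM + 1) they did for KRT5 (-0.1), KRT14 (-0.42), KRT15 (-0.14), KRT16 (-0.44), KRT17 (-0.01), KRT18 (-0.17) and KRT19 (-0.29), and on log2(TPM + 0.1) for KRT5 (-0.1), KRT14 (-0.43), KRT15 (-0.14), KRT16 (-0.48), KRT17 (-0.01), KRT18 (-0.17) and KRT19 (-0.3). With mitochondrial scaling they were -0.37 (KRT5), -0.05 (KRT6A), -0.04 (KRT6C), -0.12 (KRT8), -0.16 (KRT13), -0.7 (KRT14), -0.48 (KRT15), -0.63 (KRT16), -0.29 (KRT17), -0.45 (KRT18) and -0.57 (KRT19). The median gene moved by -0.45 with library size only, -0.62 on log2(TPM + 1) and -0.99 with mitochondrial scaling, and which scale is right was not tested. For e1 activation the 0 calls became 2 with DESeq2, 10 with no filter and 6 with all 17 libraries, and ranged from 0 to 5 leaving out 1 library, and the cause was not tested. KRT16 was at -0.42 on log2(TPM + 1) and -0.67 on log2(TPM + 0.1). Leaving out 1 library, KRT6A ranged from -2.46 to 3.69, KRT10 from -0.22 to 0.01, KRT16 from -8.99 to 7.48, KRT17 from -7.76 to 4.6 and KRT80 from -0.05 to 0.66. For the difference of effects, the split of calls over all genes was 49.5% higher and became 67.6% with library size only. With 2 or 3 libraries a group, members near the limit of 3 counts could not be compared.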
